A study of Homo sapiens with 16 samples.

Results

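MAP kinase phosphatases and the Sprouty and Spred proteins switch off the signalling that induces them, and 10 of their genes are described here across human myeloma cells in which CD28, CD86 or Gapdh was targeted by RNA interference. The genes were DUSP1, DUSP2, DUSP4, DUSP5, DUSP6, DUSP7, DUSP10, SPRY1, SPRY2 and SPRED1, chosen as feedback readouts of ERK activity. Each symbol had 1 row among the 23459 genes measured. MM.1s, RPMI8226 and KMS18 are established lines grown from malignant plasma cells, and a derivative of RPMI8226 overexpressed the anti-apoptotic protein Mcl1 (RPMI8226-Mcl1 below). Each of these 4 backgrounds received either the empty pLKO.1 vector (Vec), a short hairpin RNA (shRNA) against Gapdh as the control hairpin, or a shRNA against CD28 or CD86. RNA-seq gave 1 library for each of the 16 combinations, so the 3 parental lines served as the replicates of each shRNA and RPMI8226-Mcl1 stood as a single derived line. Neither the hairpin sequences nor the number of hairpins per target is given in the sources used here.

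The MAP kinases ERK, JNK and p38 are switched on by phosphorylation of a threonine and a tyrosine in their activation loop, and dual-specificity phosphatases of the MKP group remove both phosphates. DUSP1, DUSP2, DUSP4 and DUSP5 are inducible nuclear enzymes. DUSP6 and DUSP7 are cytoplasmic and act on ERK, and DUSP10 acts on JNK and p38. Sprouty and Spred proteins work further up, between receptor tyrosine kinases and RAF, and SPRED1 does so by bringing the RAS inactivator neurofibromin to the membrane. ERK signalling induces many of these genes, so their transcripts are often read as a record of recent pathway activity. CD86 is a ligand of CD28, the co-stimulatory receptor best known from T cells and also found on plasma cells.

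The libraries held 3914513 to 5900955 reads in genes, and the CD28 shRNA library was the shallowest of its background in all 4. CD28 transcript under its own shRNA was 71.7% ± 7.14 of Vec (SD over the 3 lines), CD86 under its own 54.9% ± 18.5 and GAPDH under its own 32.7% ± 21.2. MCL1 in RPMI8226-Mcl1 was 276% ± 49.9 of RPMI8226 (SD over 4 shRNAs). In every library 7 or 8 of 8 plasma cell markers reached 1 FPKM (fragments for each kilobase of exon, relative to the total of the library), 0 or 1 of 8 T cell markers did (where it was 1, CD3E in MM.1s and KMS18 and CD8A in RPMI8226 and RPMI8226-Mcl1) and 0 of 8 stromal markers did. Of 8 myeloid markers 1 to 3 reached 1 FPKM, with a summed level of 6.86 to 96.5 FPKM. In RNA from whole cultures, fewer cells of one kind and less RNA per cell cannot be told apart.

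The levels of the 10 genes ranged widely between lines, and the most abundant member was not the same in each. DUSP5 was the most abundant member in MM.1s, at 82.1 ± 34.3 FPKM (SD over the 4 libraries of a line), and in RPMI8226, at 38.9 ± 12.3 FPKM. In KMS18 it averaged 9.36 ± 4.62 FPKM, below DUSP2, DUSP6 and DUSP7. FPKM is scaled to exon length, which allows levels of different genes to be set side by side.

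**Figure D1:**
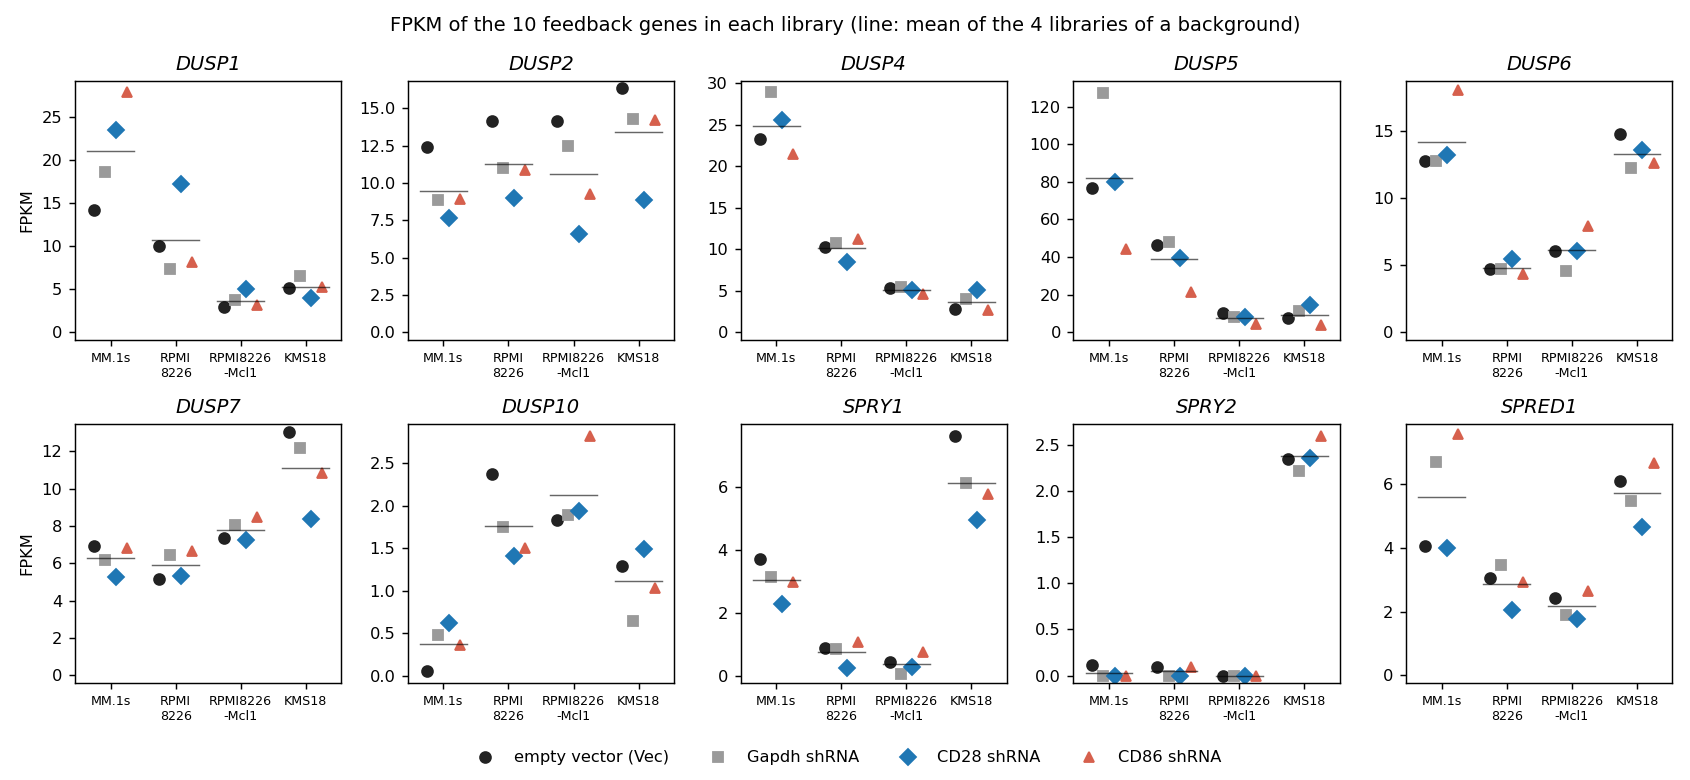
FPKM (linear axes from 0) of the 10 genes in each of the 16 libraries, by background, with 1 symbol per shRNA and a line at the mean of the 4 libraries of a background. DUSP1, DUSP4 and DUSP5 are highest in MM.1s, SPRY1 and SPRY2 in KMS18, and DUSP2 lies within a similar range in all 4 backgrounds.

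The shRNAs were compared by limma on log2(FPKM + 1) in the 12 libraries of the 3 parental lines, with the line as a block. A gene was tested if its mean was at least 1 FPKM, and called at an adjusted p (Benjamini-Hochberg over 11316 genes) under 0.05. SPRY2 fell below that mean, so 9 of the 10 genes were tested. The p-values cover the spread among these libraries and nothing wider, and differences on this log2 scale understate the change of genes with low values.

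DUSP2, a nuclear phosphatase of ERK and p38 that is induced in activated lymphocytes, was lower under CD28 shRNA. In MM.1s its level was 12.4 FPKM with Vec, 8.89 with Gapdh shRNA, 7.65 with CD28 shRNA and 8.96 with CD86 shRNA. In RPMI8226 the values in the same order were 14.1, 11, 9.0 and 10.9 FPKM, and in KMS18 16.3, 14.3, 8.84 and 14.2 FPKM. The Vec library was the highest and the CD28 shRNA library the lowest in each of these lines, but across lines the groups overlapped slightly, since 9.0 FPKM under CD28 shRNA in RPMI8226 exceeded 8.89 and 8.96 in MM.1s.

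Relative to Vec, DUSP2 under CD28 shRNA stood at 59.8% ± 5.03 (SD, 3 lines), a log2 difference of -0.68 (SE 0.11, limma adjusted p = 0.0109), lower in 3 of 3 lines. It was the 1 member called of 9 tested, against 2.83% of all genes called in this comparison and 2.11% called lower. Which libraries entered the authors' own comparisons is not stated beyond the name of the deposited table, which marks Gapdh and RPMI8226-Mcl1 as left out, so those values may rest on other libraries or settings than limma's. The authors' deposited table also called DUSP2 lower, with a log2 fold change of -0.73 and a false discovery rate of 0.00892, at the authors' limit of 0.01, by which 2.8% of genes were called. The Gapdh and CD86 shRNA libraries also lay below Vec: DUSP2 under Gapdh shRNA was 78.9% ± 7.92 of Vec and under CD86 shRNA 78.7% ± 7.60, neither past the limma threshold (log2 differences of -0.32 and -0.32). Against Gapdh shRNA in place of Vec, the CD28 shRNA difference was -0.36 with an adjusted p of 0.129. The call was also lost when MM.1s, RPMI8226 or KMS18 was left out (adjusted p = 0.10, 0.0809 and 0.117), with log2 differences of -0.71, -0.72 and -0.62, and in a fit of the Vec and CD28 shRNA libraries alone (adjusted p = 0.0597). Of the cell type markers limma called 0 in this comparison, with 2 plasma cell, 1 T cell and 1 myeloid marker at an unadjusted p under 0.05. The T cell marker was CD3E, which reached the mean of 1 FPKM through the CD28 shRNA libraries. The summed T cell markers, mostly CD3E in MM.1s and KMS18 and CD8A in RPMI8226, were 0.707 FPKM with Vec and 4.41 with CD28 shRNA in MM.1s, 2.21 and 3.02 in RPMI8226, and 2.38 and 7.68 in KMS18, with 4 to 7 of the 8 at 0 (CD3D in all 16 libraries), and their part in the DUSP2 result was not tested.

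SPRY1, an inhibitor of receptor tyrosine kinase signalling to RAS, was the member with the next largest CD28 shRNA difference. In KMS18 it measured 7.61 FPKM with Vec, 6.11 with Gapdh shRNA, 4.96 with CD28 shRNA and 5.77 with CD86 shRNA. MM.1s gave 3.70, 3.13, 2.29 and 2.99 FPKM in the same order, and RPMI8226 0.871, 0.841, 0.235 and 1.05 FPKM. CD28 shRNA was thus the lowest of the 4 libraries in all 3 lines, at 51.3% ± 21.2 of Vec, although the RPMI8226 value rested on 4 reads. The log2 difference of -0.55 (SE 0.14) missed the threshold at an adjusted p of 0.0583. With the mean of Vec and Gapdh shRNA as the control it was -0.47 and passed, at an adjusted p of 0.0464. Against Gapdh shRNA alone it did not (-0.39, adjusted p = 0.181), nor with voom weights (limma on reads recovered from FPKM, adjusted p = 0.115), a pseudocount of 0.1 (0.107) or a line left out (0.158 to 0.281).

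The remaining 7 tested genes gave no call under CD28 shRNA. DUSP7 had a log2 difference of -0.30 (adjusted p = 0.242) and SPRED1 one of -0.25 (adjusted p = 0.426). DUSP1, an immediate early gene whose product prefers JNK and p38, measured 23.5 FPKM against 14.2 with Vec in MM.1s and 17.2 against 9.99 in RPMI8226, but 4.01 against 5.12 in KMS18, which left its difference at 0.38 with a standard error of 0.28. DUSP4, DUSP5, DUSP6 and DUSP10 had differences of 0.18, 0.22, 0.04 and 0.09. DUSP6, the classical ERK phosphatase of the cytoplasm, was within 92.1% to 116% of Vec in every parental line. Across the tested members the median difference was 0.04 with 5 above 0 and 4 below, and over all genes tested it was -0.003 with 5590 above and 5726 below.

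DUSP5, a nuclear phosphatase that acts on ERK alone, was the member with the largest difference under CD86 shRNA. MM.1s gave 76.7 FPKM with Vec, 127 with Gapdh shRNA, 80.0 with CD28 shRNA and 44.2 with CD86 shRNA. RPMI8226 gave 46.6, 48.0, 39.6 and 21.3 FPKM in the same order, KMS18 7.66, 11.5, 14.5 and 3.82, and RPMI8226-Mcl1 10.1, 8.19, 8.10 and 4.34. The CD86 shRNA library was the lowest of the 4 in every background, at 57.6%, 45.7%, 49.9% and 42.8% of Vec. Levels of the 2 groups overlapped across lines, because the lines lay so far apart.

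Over the 3 parental lines DUSP5 under CD86 shRNA averaged 51.1% ± 6.06 of Vec (SD), with a log2 difference of -0.91 (SE 0.19) that missed the threshold at an adjusted p of 0.0623. No member was called in this comparison by limma, where 0.627% of all genes were (0.0619% higher and 0.566% lower), and 2 of the 9 (DUSP2 and DUSP5) had an unadjusted p under 0.05, as had 1453 of the 11316 genes. The remaining 8 had adjusted p-values of 0.255 or more. In the authors' deposited table DUSP5 was called, with a log2 fold change of -0.98 and a false discovery rate of 5.16e-06, and 1.24% of genes were called there. By limma with voom weights on reads recovered from the FPKM values the difference was -0.93 (adjusted p = 0.00961), against Gapdh shRNA -1.34 (adjusted p = 0.0126) and against the mean of both controls -1.12 (adjusted p = 0.00772). It missed the threshold with any 1 line left out (adjusted p = 0.227 to 0.238), without the filter on low values (0.166), with a pseudocount of 0.1 (0.0894) and in a fit of the Vec and CD86 shRNA libraries alone (0.0735). Mates of a pair may have been counted as separate reads, in which case voom overstates the precision of this and every other value given with its weights.

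The direct comparison of CD86 with CD28 shRNA called DUSP5, at 55.3% of its CD28 shRNA level in MM.1s, 53.7% in RPMI8226, 26.4% for KMS18 and 53.6% for RPMI8226-Mcl1. The log2 difference in the parental lines was -1.13 (SE 0.19, limma adjusted p = 0.00592), lower in 3 of 3 lines, and stayed past the threshold with any 1 line left out, at -1.27 to -0.85. In a fit of the CD28 and CD86 shRNA libraries alone it missed it, at an adjusted p of 0.079. DUSP5 was the 1 member called of 9, against 9.51% of all genes, 4.1% called lower and 5.41% higher. The authors' deposited table gave it a log2 fold change of -1.20 with a false discovery rate of 1.21e-09, where 5.87% of genes were called. The CD28 shRNA libraries serve in both this comparison and the one against Vec, so the 2 are not independent. Under CD28 shRNA, DUSP5 was 104%, 85.1%, 189% and 79.8% of Vec in MM.1s, RPMI8226, KMS18 and RPMI8226-Mcl1. CD86 transcript under CD28 shRNA was 282%, 164%, 125% and 211% of Vec in the same order. Its log2 difference in the parental lines was 0.71 (limma adjusted p = 0.142), and its part in the DUSP5 difference was not tested.

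The 8 other tested members were not called between CD86 and CD28 shRNA. DUSP1, DUSP4, DUSP6 and DUSP10 had log2 differences of -0.14, -0.21, 0.017 and -0.17. SPRED1 had a log2 difference of 0.53 (adjusted p = 0.0640), DUSP2 of 0.36 (0.0670), SPRY1 of 0.40 (0.0901) and DUSP7 of 0.31 (0.157), and low values in the CD28 shRNA libraries enter both these differences and those from Vec. For SPRED1 the values under CD28 and CD86 shRNA were 4.01 and 7.59 FPKM in MM.1s, 2.04 and 2.95 in RPMI8226, 4.65 and 6.68 in KMS18 and 1.76 and 2.66 in RPMI8226-Mcl1, so CD86 shRNA was the higher in all 4. With voom weights SPRED1 passed, at 0.67 (adjusted p = 0.0213), while in the authors' deposited table its log2 fold change of 0.64 had a false discovery rate of 0.0108 and was not called.

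**Figure D2:**
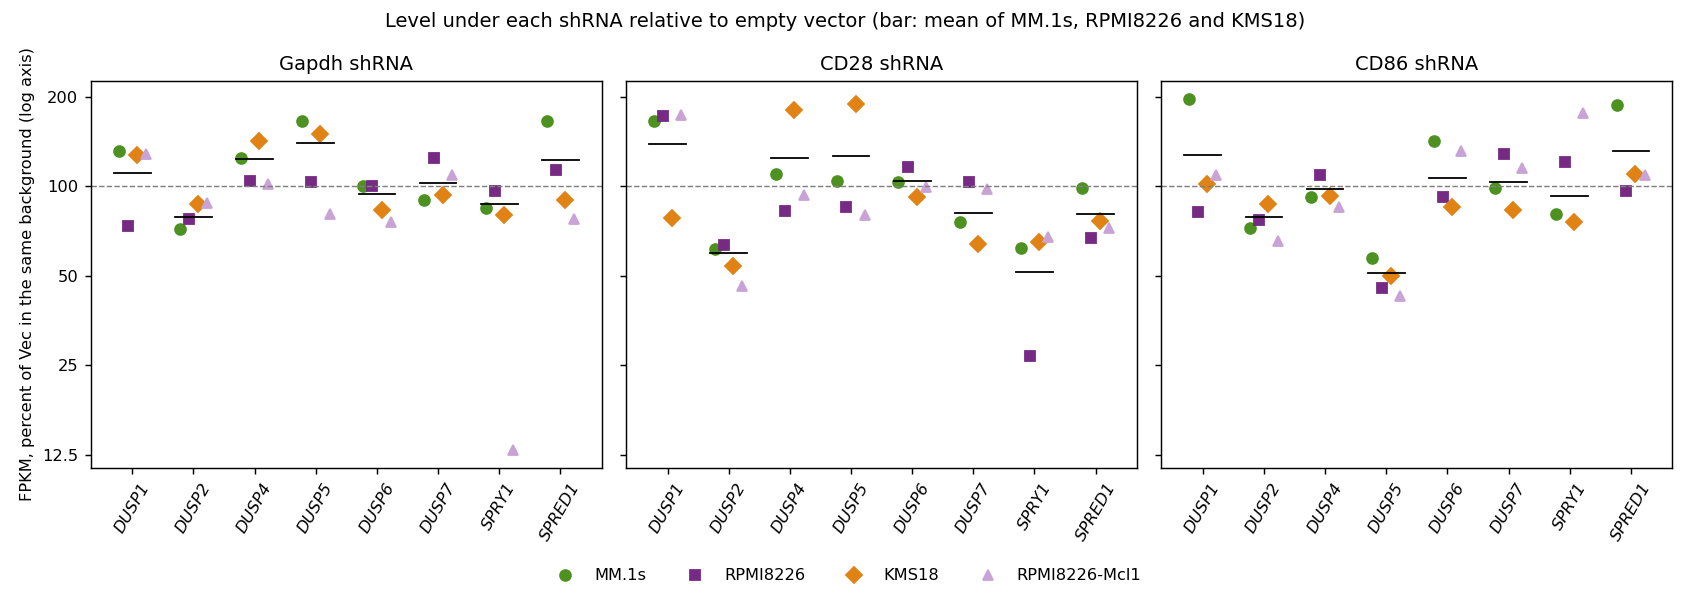
FPKM under each shRNA as a percent of Vec in the same background (log axis) for the 8 genes other than DUSP10 and SPRY2. A bar marks the mean of MM.1s, RPMI8226 and KMS18. SPRY1 rests on 4 to 22 reads in RPMI8226 and 1 to 12 in RPMI8226-Mcl1. DUSP2 lies between 46.4% and 63.6% under CD28 shRNA and DUSP5 between 42.8% and 57.6% under CD86 shRNA, while DUSP1 and DUSP4 scatter on both sides of 100%.

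Plasma cell markers were lower in the CD86 shRNA libraries too: all 8 had log2 differences from Vec below 0, with a median of -0.43. At an unadjusted limma p under 0.05 there were 6 of the 8, beside 1453 of the 11316 genes. SDC1 (syndecan, the surface marker CD138) fell by 1.11 on the log2 scale under CD86 shRNA (adjusted p = 0.0106) and MZB1, a chaperone of antibody assembly, fell by 0.47 (adjusted p = 0.0171), which made 2 of the 8 markers called. The summed level of the 8 markers was 1525 FPKM with Vec and 1042 with CD86 shRNA in MM.1s, 1222 and 927 in RPMI8226, and 1685 and 1272 in KMS18. Between CD86 and CD28 shRNA 3 of the 8 were called lower, SDC1 (-1.25), CD38 (-1.04) and MZB1 (-0.47). CD3E, the 1 tested T cell marker, was also called lower there (-1.24, adjusted p = 0.0292). It reached the mean of 1 FPKM through the CD28 shRNA libraries (3.91 FPKM in MM.1s and 7.21 in KMS18). The filter thus admitted CD3E by the group where it was higher. The summed T cell markers under CD86 shRNA were 1.03 FPKM in MM.1s, 2.05 in RPMI8226 and 1.34 in KMS18. In these libraries 4 to 6 of the 8 were at 0. MZB1 was also among the genes most alike DUSP5 over the 16 libraries, as deviations from the mean of the background (Pearson r 0.927), together with ATP6V1G1 (0.937) and ARFGAP3 (0.916). The part of these markers in the DUSP5 results was not tested.

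Gapdh shRNA, the control hairpin, gave a limma call for 0 of the 9 tested members and 0 of the 11316 genes (0% called). The uncalled genes included its own target GAPDH, at a mean of 32.7% of Vec and a log2 difference of -1.89. The lack of calls therefore does not show that this hairpin left the other genes unchanged. At an unadjusted p under 0.05 there were 2 members and 402 genes, and limma with voom weights also called 0 members and 0 genes. The members were DUSP2, with a log2 difference of -0.32, and DUSP5, with one of 0.43. DUSP5 was 166% of Vec in MM.1s, 103% in RPMI8226 and 150% in KMS18, but 80.8% in RPMI8226-Mcl1. Of the other targets, CD86 was not called under its own shRNA (log2 difference -0.62), and CD28 was called under its own (-0.47).

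Small RNAs can lower transcripts through short matches in the 3′ untranslated region (3′ UTR), and the 3′ UTRs of the members were therefore searched for the heptamers that went with lower levels under each shRNA. The heptamers were picked after seeing these data, from the fold changes of 10505 genes other than the members, as those whose holders had the lowest scaled mean difference. Exact matches were counted on the transcript strand only, in the longest annotated 3′ UTR of each gene. For CD28 shRNA the first was CTGTGTT, present in 24.3% of genes, whose median log2 difference from Vec was -0.05 against 0.01 for genes without it. For CD86 shRNA it was TCAAGCA, in 13.7% of genes, with -0.03 against 0.03. These differences chose the heptamers and are given as a description. In RPMI8226-Mcl1 the medians were -0.05 against 0 and -0.03 against 0.01. This line took no part in the choice, but it derives from RPMI8226, which did, and received shRNAs against the same targets. Its medians are therefore not an independent check and are a description too. Holders had longer 3′ UTRs, with medians of 2805 against 1007 bases for CTGTGTT and 3348 against 1137 for TCAAGCA. For Gapdh shRNA the first heptamer had a difference of only -0.02 against -0.01.

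The sites in the members that hold these heptamers are shown because they include both genes with the strongest shRNA differences. They are written 5′ to 3′ on the transcript strand in GRCh38 with GENCODE release 29, each inside a 3′ UTR exon, with the heptamer in capitals and 10 bases on either side.
DUSP2, chr2:96143392-96143418, minus strand: agcccaagccCTGTGTTcctggggaag
SPRY1, chr4:123403457-123403483, plus strand: ctaatctcttCTGTGTTttccttgcct
SPRED1, chr15:38352725-38352751, plus strand: atatgttcagCTGTGTTactaattttt
DUSP5, chr10:110510715-110510741, plus strand: ccttttcattTCAAGCAtaaggcaata

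CTGTGTT was in 3 of the 10 members, DUSP2, SPRY1 and SPRED1, beside 24.3% of the other genes compared. The log2 differences of these 3 members under CD28 shRNA ran from -0.68 to -0.25, and the 6 other tested members ran from -0.30 to 0.38. TCAAGCA was in DUSP5 alone of the 10 members, beside 13.7% of the other genes compared. DUSP5 was at -0.91 under CD86 shRNA, with the 8 other tested members between -0.32 and 0.28. The second heptamers were TGTGTTA, found in SPRED1, and TTCAAGC, found in DUSP5 and also in DUSP4, DUSP6 and SPRED1, whose differences under CD86 shRNA were -0.03, 0.05 and 0.28. CD28 itself held CTGTGTT and CD86 did not hold TCAAGCA. A match describes letters only, and the part of these sites in the member results was not tested.

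**Figure D3:**
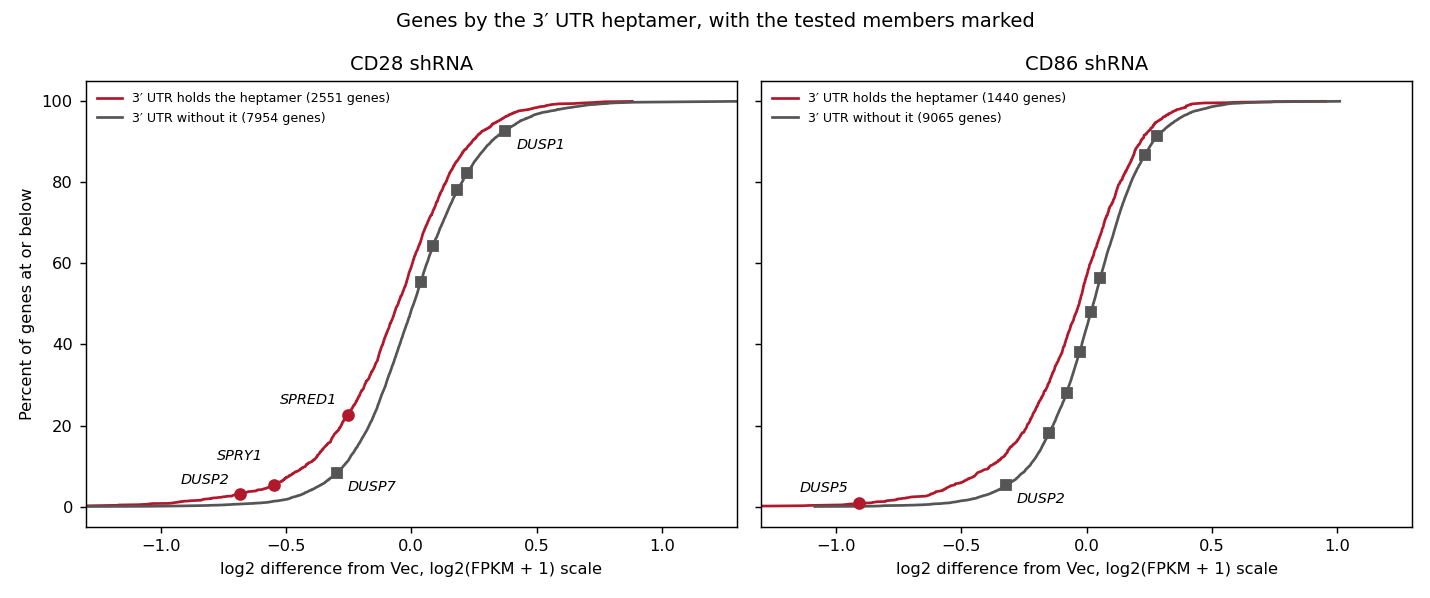
Cumulative percent of genes (members left out) against the log2 difference from Vec, for genes whose 3′ UTR holds the first heptamer (red) or does not (grey), under CD28 shRNA (left) and CD86 shRNA (right), with the tested members placed on the curve of their class. DUSP2 at -0.68 and DUSP5 at -0.91 lie at the low end of the red curves.

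Genes around the feedback set were read from lists of pathway components. Of all 11316 genes limma called 2.83%, 0.627% and 0% under CD28, CD86 and Gapdh shRNA against Vec. Under CD28 shRNA 0.716% were called higher and 2.11% lower. Among the 11316 genes 2240, 1453 and 402 had an unadjusted p under 0.05 under CD28, CD86 and Gapdh shRNA. Among 12 further MKP, atypical DUSP, Sprouty and Spred genes, 6 were tested and 0 were called under CD28, CD86 or Gapdh shRNA against Vec, with medians of 0.22, -0.003 and 0.02 and with 2, 0 and 0 at an unadjusted p under 0.05. Of 30 tested components of the route from RAS to ERK, 0 were called against Vec under any shRNA, with 6, 4 and 0 at an unadjusted p under 0.05. Of 9 tested ERK-responsive output genes, 1 was called under CD28 shRNA: MYC, a transcription factor that drives growth, fell by 0.54 (adjusted p = 0.0496). Of 14 tested immediate early genes, 2 were called, both higher under CD28 shRNA: KLF6 by 0.52 (adjusted p = 0.0218) and KLF10 by 0.50 (adjusted p = 0.0400). MAPK14, which encodes p38 alpha, fell by 0.74 (adjusted p = 0.0169), the 1 call among 16 tested JNK and p38 kinases. Under CD86 shRNA against Vec limma called 0 genes of these lists. At an unadjusted p under 0.05 there were 4, 1 and 0 output genes under CD28, CD86 and Gapdh shRNA. Immediate early genes at that limit numbered 6, 6 and 2 in the same order, and JNK or p38 kinases 4, 1 and 1. Of the 8 tested growth factor receptor genes 0 were called in these 3 comparisons, with 0, 1 and 0 at an unadjusted p under 0.05.

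Between CD86 and CD28 shRNA, where 9.51% of all genes were called, the shares called in the pathway lists are read against that background. SPRED2, a relative of SPRED1, was lower under CD86 shRNA by a log2 difference of -0.46 (adjusted p = 0.0458), 1 of the 6 tested relatives. It was also the 1 gene called among the 9 tested ERK-responsive output genes. In the route from RAS to ERK 3 of 30 were lower, the adaptor GAB1 (-0.79), MAPK3, which encodes ERK1 (-0.47), and the ERK-activated kinase MKNK2 (-0.34). Among immediate early genes ATF3 (-0.80) and KLF6 (-0.41) were lower and SRF (0.45) was higher, and MAPK14 was higher by 0.79.

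The lines were compared in the same fit, with 4 libraries each. Between MM.1s and RPMI8226, 7 of the 9 tested members were called, against 69.1% of all genes (35.9% higher and 33.2% lower), so the share of members was near the background. Those higher in MM.1s were DUSP6 (log2 difference 1.38), SPRY1 (1.22), DUSP4 (1.20), DUSP5 (1.03), DUSP1 (0.94) and SPRED1 (0.74), and DUSP10 was lower (-1.01). DUSP10 averaged 0.376 FPKM in MM.1s and reached the mean of 1 FPKM through RPMI8226 (1.76) and KMS18 (1.11), so the filter admitted it by the lines where it was higher. In the same way SPRY1 averaged 0.750 FPKM in RPMI8226, on 4 to 22 reads, and was admitted through MM.1s (3.03) and KMS18 (6.11). DUSP2 (-0.23) and DUSP7 (0.08) were not called, but DUSP2 passed after rescaling (-0.28, adjusted p = 0.0240) and with a pseudocount of 0.1 (-0.25, adjusted p = 0.0496). Of the 6 tested relatives 4 were called, with SPRED2, DUSP22, DUSP14 and DUSP3 lower in MM.1s at differences of -0.82 to -0.60. Of the 9 tested ERK-responsive output genes 8 were lower and 1 was higher in MM.1s. Among those lower were PHLDA2 (-4.65) and the ETS factors ETV4 (-4.17) and ETV5 (-2.19), with PHLDA1 at 3.79 as the exception. SPRED2 belongs to both lists and is counted in each. In KMS18, 5 of the 9 output genes were lower and 1 higher than in RPMI8226, and 4 higher and 2 lower than in MM.1s. Cell type markers differed between the lines as well: in MM.1s 6 of 8 plasma cell markers were called higher and 1 lower, both tested myeloid markers were lower (CD33 at -2.95 and CD68 at -2.09) and CD3E was higher (1.00). CD3E lay at 0 to 0.179 FPKM in RPMI8226, so the filter admitted it by MM.1s and KMS18, the lines where it was higher. Over all line comparisons the part of these markers in the member differences was not tested.

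KMS18 against RPMI8226 also called 7 of 9, where 70.3% of all genes were called, 35.2% higher and 35.1% lower. SPRY1 (2.04), DUSP6 (1.31), SPRED1 (0.80) and DUSP7 (0.80) were higher in KMS18, and DUSP5 (-2.01), DUSP4 (-1.29) and DUSP1 (-0.86) were lower. SPRY1, at a mean of 0.750 FPKM in RPMI8226, was admitted by the filter through KMS18 and MM.1s, where it was higher. Without the CD28 shRNA libraries the DUSP1 call was lost, at -0.52 (adjusted p = 0.0577), and DUSP2 (0.30, adjusted p = 0.0208) and DUSP10 (-0.53, adjusted p = 0.0381) were called. Of the 8 plasma cell markers 5 were higher and 2 lower in KMS18 than in RPMI8226, CD68 was lower (-4.85) and CD3E higher (1.81). Of the 8 tested growth factor receptor genes, 4 were called higher and 3 lower in KMS18 than in RPMI8226, and 1 higher and 3 lower than in MM.1s. FGFR3, a fibroblast growth factor receptor, was at 575 ± 100.8 FPKM in KMS18, 0.231 ± 0.115 in MM.1s and 0.437 ± 0.192 in RPMI8226. MAF was at 0.0764 ± 0.0315 FPKM in KMS18, 160 ± 21.0 in MM.1s and 230 ± 27.0 in RPMI8226. The part of these genes in the member differences was not tested and cannot be told apart from other differences between the lines.

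KMS18 against MM.1s called 7 of 9 as well, with 65.3% of all genes called, 30.8% higher and 34.5% lower. DUSP5 (-3.04), DUSP4 (-2.49) and DUSP1 (-1.80) were lower in KMS18, while SPRY1 (0.82), DUSP7 (0.72), DUSP10 (0.62) and DUSP2 (0.45) were higher. DUSP10 lost its call without the Vec libraries (0.45, adjusted p = 0.0524), and DUSP2 lost its call without the shRNA block (adjusted p = 0.0523). Here 2 of 8 plasma cell markers were higher and 3 lower, CD33 (2.90) and CD3E (0.80) were higher and CD68 (-2.77) was lower. DUSP6 (-0.07) and SPRED1 (0.06) were not called, so their neighbouring levels in these 2 lines did not separate beyond the spread.

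Among the inducible nuclear phosphatases DUSP1, DUSP4 and DUSP5 were highest in MM.1s, and DUSP2 was not. DUSP4 averaged 24.8 ± 3.23 FPKM in MM.1s, 10.2 ± 1.19 in RPMI8226, 5.13 ± 0.391 in RPMI8226-Mcl1 and 3.67 ± 1.16 in KMS18, and its libraries did not overlap between MM.1s, RPMI8226 and the lower pair. The mean of DUSP1 was 21.0 ± 5.96 FPKM for MM.1s, 10.7 ± 4.47 for RPMI8226, 5.22 ± 1.03 for KMS18 and 3.69 ± 0.940 for RPMI8226-Mcl1. Its 17.2 FPKM under CD28 shRNA in RPMI8226 exceeded the 14.2 FPKM of Vec in MM.1s, so these 2 lines overlapped. DUSP2 showed the least separation, with means of 9.47 ± 2.04, 11.3 ± 2.14, 13.4 ± 3.21 and 10.6 ± 3.38 FPKM for MM.1s, RPMI8226, KMS18 and RPMI8226-Mcl1 and overlapping libraries in all 4.

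The cytoplasmic ERK phosphatases were ordered otherwise. DUSP6 averaged 14.2 ± 2.59 FPKM in MM.1s and 13.3 ± 1.13 in KMS18, and 6.17 ± 1.38 in RPMI8226-Mcl1 and 4.79 ± 0.464 in RPMI8226, with no library of the upper pair below 12.3 FPKM and none of the lower pair above 7.98. DUSP7 was highest in KMS18, at 11.1 ± 2.04 FPKM, against 7.78 ± 0.579 in RPMI8226-Mcl1, 6.29 ± 0.767 in MM.1s and 5.91 ± 0.758 in RPMI8226. DUSP10 was scarce throughout, from 0.376 ± 0.241 FPKM in MM.1s to 2.12 ± 0.469 in RPMI8226-Mcl1, on 1 to 56 reads per library.

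The Sprouty genes separated KMS18 from the rest. SPRY1 averaged 6.11 ± 1.11 FPKM in KMS18, 3.03 ± 0.579 in MM.1s, 0.750 ± 0.356 in RPMI8226 and 0.371 ± 0.284 in RPMI8226-Mcl1. SPRY2 measured 2.34, 2.21, 2.36 and 2.59 FPKM in KMS18 with Vec, Gapdh, CD28 and CD86 shRNA, on 38 to 47 reads. In the 12 libraries of the other backgrounds it had 0 to 2 reads, and 9 of them, including all 4 of RPMI8226-Mcl1, had none, which allows up to 3 reads or 0.145 to 0.211 FPKM. Without the filter on low values SPRY2 was called higher in KMS18 than in RPMI8226 (1.69, limma adjusted p = 6.16e-08) and MM.1s (1.71, adjusted p = 1.25e-07), and these values depend on the added 1 FPKM. SPRED1 averaged 5.73 ± 0.868 FPKM in KMS18 and 5.59 ± 1.83 in MM.1s, against 2.88 ± 0.598 in RPMI8226 and 2.19 ± 0.430 in RPMI8226-Mcl1.

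RPMI8226-Mcl1 was compared with RPMI8226 in 8 libraries paired by shRNA, where 8 of the 10 genes passed the filter and SPRY1 and SPRY2 did not. The nuclear phosphatases DUSP5, DUSP1 and DUSP4 were all lower in the derived line, and DUSP7 was slightly higher. DUSP5 in RPMI8226-Mcl1 was at 21.8%, 17.1%, 20.4% and 20.4% of its RPMI8226 level with Vec, Gapdh, CD28 and CD86 shRNA, and no library of the derived line reached the lowest of the parent. Its log2 difference was -2.18 (SE 0.08, limma adjusted p = 5.55e-06), lower in 4 of 4 pairs.

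DUSP1 was at 36.7% ± 10.2 of the parent (SD, 4 pairs), a log2 difference of -1.27 (adjusted p = 0.000505), and DUSP4 at 50.9% ± 7.57, one of -0.87 (adjusted p = 0.000571). For both, every library of the derived line was below every library of the parent. DUSP7 was at 132% ± 8.0, a difference of 0.35 (adjusted p = 0.0115) that missed the threshold without the Vec libraries (0.32, adjusted p = 0.0518). Altogether 4 of 8 tested members were called, 3 lower and 1 higher, against 34.4% of all genes, of which 14.9% were lower and 19.5% higher.

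DUSP2, the member called under CD28 shRNA, was at 93.0% ± 17.6 of the parent and not called (-0.11). DUSP6 was at 131% ± 37.9 (0.29, adjusted p = 0.133), DUSP10 at 128% ± 47.1 and SPRED1 at 78.0% ± 15.9 (-0.27, adjusted p = 0.132). SPRED1 passed with voom weights, at -0.43 (adjusted p = 0.00950). The 4 libraries come from 1 derived line, so the Mcl1 transgene and any other difference between this line and its parent cannot be told apart.

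**Figure D4:**
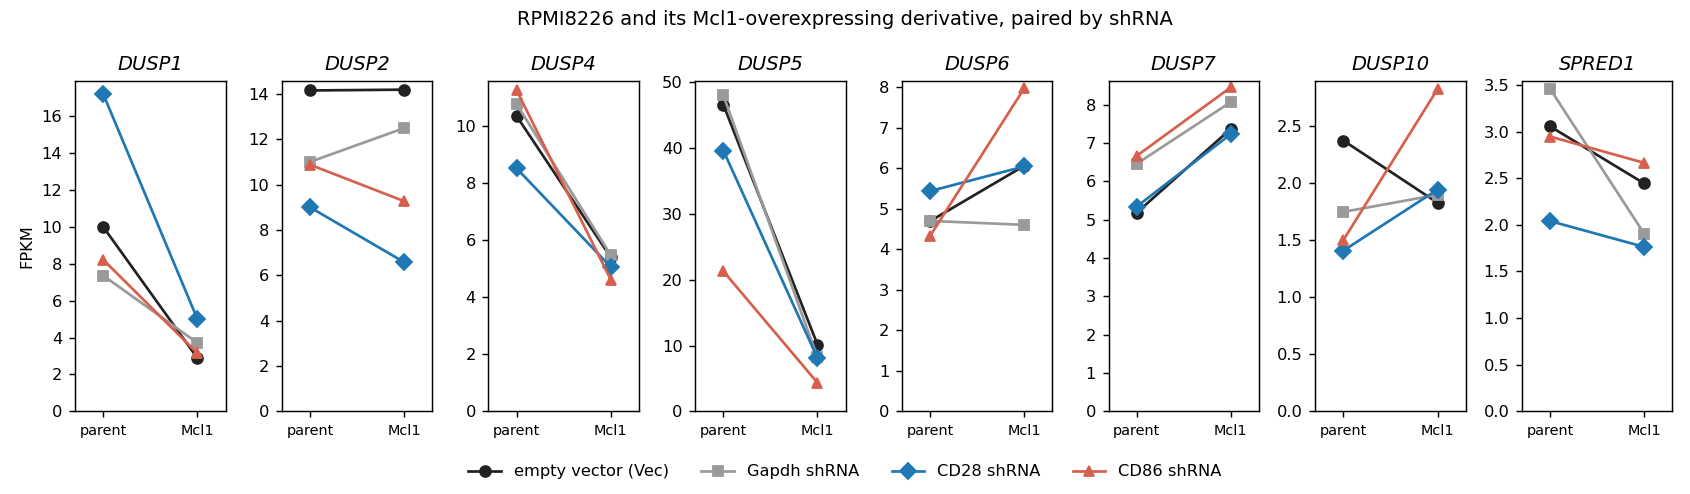
FPKM (linear axes from 0) of the 8 tested genes in RPMI8226 (parent) and RPMI8226-Mcl1 (Mcl1), with 1 line per shRNA joining the paired libraries. All 4 lines fall for DUSP1, DUSP4 and DUSP5 and rise for DUSP7.

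The pathway lists are set beside 34.4% of all genes called between RPMI8226-Mcl1 and RPMI8226 (19.5% higher and 14.9% lower). Of 14 tested immediate early genes 11 were called, 6 higher and 5 lower. FOS was lower (-1.21), as were the antiproliferative gene BTG2 (-0.96) and the nuclear receptor NR4A1 (-0.64), while JUN was higher (1.07). Of 9 tested ERK-responsive output genes PLAUR (0.72), ETV5 (0.69) and ETV1 (0.55) were higher and MYC (-0.17) was lower. The RAS to ERK list had 5 higher and 3 lower of 28, led by PEA15, an ERK-binding protein (1.02). Of the 16 JNK and p38 kinases 6 were higher and 0 lower, led by MAPK11 (0.96), and of 6 relatives DUSP3 (0.57) and DUSP14 (0.38) were higher and DUSP22 (-0.25) lower. Plasma cell markers moved in this comparison too, with 2 of 7 tested higher and 2 lower, and 2 of 3 tested myeloid markers, ITGAM (1.57) and CD68 (0.86), were higher. Their part in the member differences was not tested.

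In RPMI8226-Mcl1 DUSP2 was at 46.4% of Vec under CD28 shRNA, against 59.8% ± 5.03 in the parental lines, and DUSP5 at 42.8% of Vec under CD86 shRNA, against 51.1% ± 6.06. Tested as an interaction in the 16 libraries together, over 11349 genes, limma called 0 of 9 tested members for CD28, CD86 and Gapdh shRNA, where 0.00881%, 0% and 0% of genes were called. The interaction log2 differences were -0.32 for DUSP2 with CD28 shRNA and -0.15 for DUSP5 with CD86 shRNA. With 1 library per shRNA in the derived line the spread came from the parental lines, so the lack of calls does not show that the responses were equal. SPRY1 had 1 to 12 reads in the 4 libraries of RPMI8226-Mcl1, too few to read a response from.

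Within a background the members did not vary as a unit. Over the 16 libraries, as deviations from the background mean, the highest correlation was between DUSP4 and DUSP5 (r 0.677), followed by DUSP7 and SPRY1 (0.625) and SPRY1 and SPRED1 (0.514), and the lowest was between DUSP1 and SPRY1 (-0.560). These pairs share libraries and shRNAs, and the values are descriptions. The gene most alike DUSP2 was WDR76 (0.920), followed by the purine synthesis enzyme PAICS (0.912) and the mitochondrial seryl-tRNA synthetase SARS2 (0.906). For SPRED1 it was RRAGA (0.945), and for SPRY1 ASRGL1 (0.938).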

How the data were processed

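Human RNA-seq libraries, 1 for each of 16 combinations of background and shRNA, were analysed from 1 deposited table. The authors deposited FPKM per gene and library with exon lengths, and log2 fold changes with p-values, false discovery rates (q-values), calls and a test statistic (a score) for 3 comparisons. The submitters' processing notes name TopHat2 2.0.13, Picard, R 3.2.2, edgeR 3.12.1, hg19, GRCh37 and mm9. Whether counting used strand is not stated in the sources used here, and overlapping genes or near-identical paralogs may share reads.

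FPKM multiplied by exon length gave whole reads for 100% of values (tolerance 0.02 of a read), used for depth and for voom. Of low read numbers 74.8% to 77.9% were even, so mates of a pair may each have been counted. Tests used limma 3.58.1 in R 4.3.3 (lmFit and eBayes with trend, two-sided) on log2(FPKM + 1) of the genes that averaged 1 FPKM or more in the fitted libraries, and were tested on simulated data. The shRNA and line comparisons came from 1 fit of 12 libraries with both terms (6 residual degrees of freedom), and RPMI8226-Mcl1 against RPMI8226 from 8 libraries with an shRNA term (3). Lines pair the libraries: over genes, deviations from shRNA means correlated at r 0.87 to 0.952 in all 18 same-line pairs.

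The members, pathway lists and tests were chosen with earlier results of these data known. All members are named, with called genes of the lists and the genes most alike a member by Pearson r. Heptamers were counted in the longest basic protein-coding 3′ UTR per gene of GENCODE release 29 (GRCh38), matched by Entrez ID for 10514 of 11316 tested genes. Alternatives were another pseudocount, no filter, rescaled FPKM, voom, no block, other controls and leaving out libraries.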

Additional observations from a re-analysis of the deposited data

How the results depend on the processing

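Members past the threshold under CD28 shRNA (1 against Vec) numbered 0 without the replicate block, 0 with only the libraries of the 2 groups, 0 against Gapdh shRNA (a control added after seeing the data), 0 to 0 with a line left out, and 2 (DUSP2 and SPRY1) against the mean of Vec and Gapdh shRNA. Under CD86 shRNA (0 against Vec) they numbered 1 (DUSP5) with voom, against the mean of both controls and against Gapdh shRNA. Between CD86 and CD28 shRNA (1, DUSP5) they numbered 2 with voom (DUSP5 and SPRED1), 0 without the replicate block and 0 with only the libraries of the 2 groups, where the adjusted p of DUSP5 was 0.079 and that of DUSP2 under CD28 shRNA 0.0597. Leaving out the line term puts the differences between lines into the spread, and the other fits use fewer samples or other controls. Counts for the line, RPMI8226-Mcl1 and interaction comparisons moved by 1 member at most, but between KMS18 and RPMI8226 the count without the CD28 shRNA libraries (8 in place of 7) lost DUSP1 and gained DUSP2 and DUSP10. Depth limits DUSP10, SPRY1 outside KMS18 and MM.1s, and SPRY2.

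Sign changes were limited to uncalled differences, and their cause was not tested. Against Gapdh shRNA DUSP4 and DUSP5 under CD28 shRNA were -0.065 and -0.21, and DUSP10 and SPRY1 under CD86 shRNA 0.017 and 0.012. With a pseudocount of 0.1, DUSP10 was 0.22 under CD86 shRNA, 0.20 under Gapdh shRNA and -0.14 in the Gapdh interaction. After rescaling, DUSP6 was -0.024 between CD86 and CD28 shRNA.

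With a line or the libraries of an shRNA left out, the ranges that crossed 0 were as follows. For CD28 shRNA against Vec they were -0.18 to 0.069 for DUSP10, -0.032 to 0.11 for DUSP6, -0.061 to 0.40 for DUSP4 and -0.085 to 0.45 for DUSP5. For CD86 shRNA against Vec they were -0.12 to 0.47 for DUSP1, -0.098 to 0.014 for DUSP4, -0.15 to 0.19 for DUSP6 and -0.13 to 0.15 for DUSP7. For Gapdh shRNA against Vec they were -0.049 to 0.33 for DUSP1, -0.11 to 0.090 for DUSP7, -0.12 to 0.0015 for DUSP6 and -0.39 to 0.095 for DUSP10. For CD86 shRNA against CD28 shRNA they were -0.19 to 0.16 for DUSP6, -0.37 to 0.28 for DUSP1 and -0.50 to 0.059 for DUSP4. For MM.1s against RPMI8226 they were -0.015 to 0.12 for DUSP7. For KMS18 against MM.1s they were -0.078 to 0.17 for SPRED1 and -0.16 to 0.064 for DUSP6. For CD28 shRNA interaction they were -0.31 to 0.24 for DUSP10, -0.15 to 0.054 for SPRED1, -0.11 to 0.030 for DUSP6 and -0.082 to 0.43 for DUSP1. For CD86 shRNA interaction they were -0.38 to 0.21 for DUSP1 and -0.35 to 0.051 for SPRED1. For Gapdh shRNA interaction they were -0.054 to 0.33 for DUSP1 and -0.059 to 0.42 for DUSP10.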
